A study of Mus musculus with 8 samples.

Results

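Resident macrophages of the kidney were followed through 10 genes, some of which other cells also express. These were the 3 chains of complement C1q (*C1qa*, *C1qb*, and *C1qc*), the growth factor receptor *Csf1r*, the chemokine receptor *Cx3cr1*, the scavenger receptors *Mrc1* and *Cd163*, and *Adgre1*, *Cd68*, and *Lyz2*. They were taken by gene name from a table of raw read counts, and they are 10 of its 55367 genes. All 10 were counted in whole kidneys of *c-Maf* knockout and control mice, and 9 of them had enough counts to be tested. None of the 9 passed the threshold, which 2.16% of all tested genes passed. *Maf* itself fell by 4.05 on the log2 scale over the whole kidney, and its loss from macrophages was not measured. In the 8 mice the 3 C1q chains differed by 1.16-fold or less, *Cx3cr1* and *Lyz2* had the highest estimates, at 1.44-fold and 1.54-fold, and *Mrc1* the lowest, at 0.803-fold.

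Macrophages of adult tissues engulf dying cells, immune complexes, and filtered debris, and in the kidney they lie between the tubules and capillaries. They depend on signaling through the CSF1 receptor. They are the main source of C1q, the molecule that recognizes immune complexes and apoptotic cells and starts the classical complement pathway, and each C1q molecule contains all 3 chains. Macrophages express the transcription factor c-Maf, as do proximal tubule cells, and the DNA motifs that Maf factors recognize are known as MAREs.

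RNA-Seq libraries came from whole kidneys of 8 C57BL/6J mice with a labelled age of 8 weeks, 4 for each genotype. The *c-Maf*ΔTAM mice (conditional knockout, here called knockout mice) carried the floxed *c-Maf* alleles and *CAG-Cre-ERTM*, a tamoxifen-activated Cre recombinase driven by the broadly active CAG promoter, so the deletion was not limited to macrophages or to the kidney. The *c-Maf* fl/fl mice (here called control mice) carried the floxed alleles without Cre, and both genotypes received tamoxifen (TAM). The values are from bulk tissue, so for every gene below fewer macrophages and less RNA per macrophage cannot be told apart. How far *Maf* was lost from the macrophages themselves was not tested. In its diabetic mice, the paper reported macrophages that expressed c-Maf in kidneys of both genotypes.

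RefSeq promoter windows (GRCm38.p6) were matched for 7 of the 10 genes, and the 250 bases before the start of each were searched on both strands for the sites of Maf factors and of PU.1, the factor of the myeloid lineage. The core of a MARE, TGCTGA, was in 2 of the 7 (*C1qb* and *Lyz2*) and in 16.1% of the 32851 windows searched. The full elements, in which TGCTGA is followed by its reverse complement with C or CG in between, were in 0 of the 7 and in 1 and 0 of all windows. TGAGTCA, the AP-1 site, whose complement is part of the full element with C, was in *Cd68* alone and in 4.46% of all windows. GAGGAAGT, a PU.1 core, was in *C1qc* alone and in 2.44% of all windows. The stretches of these windows that hold a hit and lie before the first annotated exon base are printed here for *C1qb* and *C1qc*, neighbors that hold different hits, and for *Lyz2*, the gene with the highest estimate, read 5′ to 3′ along the gene, with the hit in capitals (TGCTGA in *C1qb* and *Lyz2*, the reverse complement of GAGGAAGT in *C1qc*). They are chr4:136886201-136886450, chr4:136893066-136893164, and chr10:117282322-117282522, all on the minus strand, and the hits begin 131, 195, and 125 bases before the RefSeq starts.
C1qb: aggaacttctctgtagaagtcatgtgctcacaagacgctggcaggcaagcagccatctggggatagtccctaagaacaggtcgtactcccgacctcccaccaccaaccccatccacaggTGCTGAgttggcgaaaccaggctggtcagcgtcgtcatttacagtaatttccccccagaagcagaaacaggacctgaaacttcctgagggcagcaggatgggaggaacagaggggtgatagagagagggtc
C1qc: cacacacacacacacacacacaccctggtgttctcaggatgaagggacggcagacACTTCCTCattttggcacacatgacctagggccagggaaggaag
Lyz2: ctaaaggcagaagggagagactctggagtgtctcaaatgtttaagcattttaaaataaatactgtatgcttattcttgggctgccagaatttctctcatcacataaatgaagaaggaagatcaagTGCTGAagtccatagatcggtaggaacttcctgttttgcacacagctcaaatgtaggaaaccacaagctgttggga
These are matches of letters, and no binding was measured here.

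The 3 C1q genes are neighbors on the minus strand of chromosome 4. In the GRCm38 annotation they span chr4:136880129-136898803 (18.7 kb) in the order *C1qb*, *C1qc*, *C1qa*, with gaps of 3616 and 2851 bases between genes, and each has 3 merged exons that overlap no other gene. *Mrc1* is at chr2:14229392-14332057, *Cd163* at chr6:124304656-124330527, *Adgre1* at chr17:57358691-57483527, and *Csf1r* at chr18:61100598-61132149, all on the plus strand. *Cx3cr1* (chr9:119901616-120069879), *Cd68* (chr11:69664213-69666153), and *Lyz2* (chr10:117277331-117282321) are on the minus strand. Of the exonic bases of *Csf1r*, 15.1% are shared with *Hmgxb3*, and reads there were not counted. *Lyz2* shares 27.3% of its 36-base sequences, the length of the reads, mainly with its close copy *Lyz1*, so its level is uncertain.

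Totals were 16649129 to 22990257 counts per mouse, and levels are given as CPM (counts scaled to a common library size) scaled by edgeR's TMM factors. *Maf* had 178 to 671 counts in knockout mice and 5988 to 7746 in control mice (log2 fold change -4.05, standard error 0.512, adjusted *P* = 0.0115, edgeR quasi-likelihood test). *Xist* had over 1000 counts in 5 mice and 2, 6, and 22 counts in knockout mouse 1 and control mice 3 and 4, and sexes are not stated. Knockout mouse 1 also had the highest share of mitochondrial counts, 32.3% against 17.1% to 25.5% in the other 7. The proximal tubule markers summed to 16410 to 28590 CPM per mouse, while *Alb*, a hepatocyte gene, was at 1.37 ± 0.830 CPM in knockout and 5.65 ± 3.06 CPM in control mice (SD, n = 4) and *Hamp* was at 0 counts in every mouse. *Cyp2e1*, a hepatocyte marker that the kidney also expresses, was at 47.2 to 1398 CPM. Of the 6 tested hepatocyte markers 0 rose and 1, *Ttr*, fell (log2 fold change -5.02, adjusted *P* = 0.0152), beside 1.58% of all genes that fell. By these markers the tissue is kidney, as labelled, although the labels' extraction text names liver. The labels number the replicates of each genotype without saying that each is 1 animal. They are treated here as 4 mice, and *P* values measure the spread between these samples.

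The macrophage genes were low but countable in this tissue. Together the 10 genes took 1710 to 2327 counts per mouse, and the 3 C1q chains took 459 to 709 of them. Scaled to gene length (RPKM, CPM per kilobase of exon), *C1qb* had the highest mean of the 10 in control kidneys, at 12.02 ± 2.24 RPKM (SD, n = 4). It was followed by *Csf1r* (9.40 ± 0.431), *C1qa* (8.15 ± 1.05), *Lyz2* (5.57 ± 1.84), and *C1qc* (4.402 ± 0.813). Then came *Cd68* (1.60 ± 0.183), *Adgre1* (1.21 ± 0.109), *Mrc1* (0.833 ± 0.231), *Cx3cr1* (0.734 ± 0.109), and *Cd163* (0.134 ± 0.112). The length of *Csf1r* includes the bases shared with *Hmgxb3*, and over its other exonic bases it was at 11.1 ± 0.508 RPKM, which overlapped with *C1qb* and not with *C1qa*. Neighbors in this order also overlapped from *C1qa* to *C1qc* and from *Adgre1* to *Cx3cr1*, whereas *Cd68* and *Cd163* did not overlap with their neighbors. In knockout kidneys *Cx3cr1* (1.06 ± 0.154 RPKM) came before *Mrc1* (0.668 ± 0.108 RPKM). There the order of *C1qb* (11.7 ± 2.13 RPKM) and *Csf1r* depended on the length used for *Csf1r*, which was at 10.6 ± 0.587 RPKM over all its exonic bases and 12.45 ± 0.691 RPKM over the unshared ones, and the other genes kept their order.

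Across all genes, 436 of the 20149 tested (2.16%) passed an adjusted *P* of 0.05 in edgeR's quasi-likelihood test, 118 of them higher (0.586%) and 318 lower (1.58%) in knockout mice. Of the 9 macrophage genes tested, 0 passed, and 0 passed in DESeq2 (4.4% of all genes) or in edgeR's exact test (3.36%). At an unadjusted *P* of 0.05, 3 of the 9 were higher (*Cx3cr1*, *Lyz2*, and *Csf1r*) and 0 lower, beside 14% of all genes in either direction and 6.58% that were higher. The count of 3 became 1 without knockout mouse 3, control mouse 1, or control mouse 4. It became 2 without knockout mouse 1, knockout mouse 2, control mouse 2, or control mouse 3. It was also 2 in DESeq2, in edgeR's exact test, with the replicate number as a block, and in the mice with high *Xist*. Without knockout mouse 4 it stayed at 3, with *Adgre1* in place of *Lyz2*. The values of the 4 knockout and 4 control mice overlapped for all 10 genes, whereas they did not overlap for 9.79% of all genes, with knockout above control for 4.17%. The estimate was above 0 for 7 of the 9, against 50.5% of all genes, and their median log2 fold change was 0.22, against 0.00 for all genes.

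**Figure D1:**
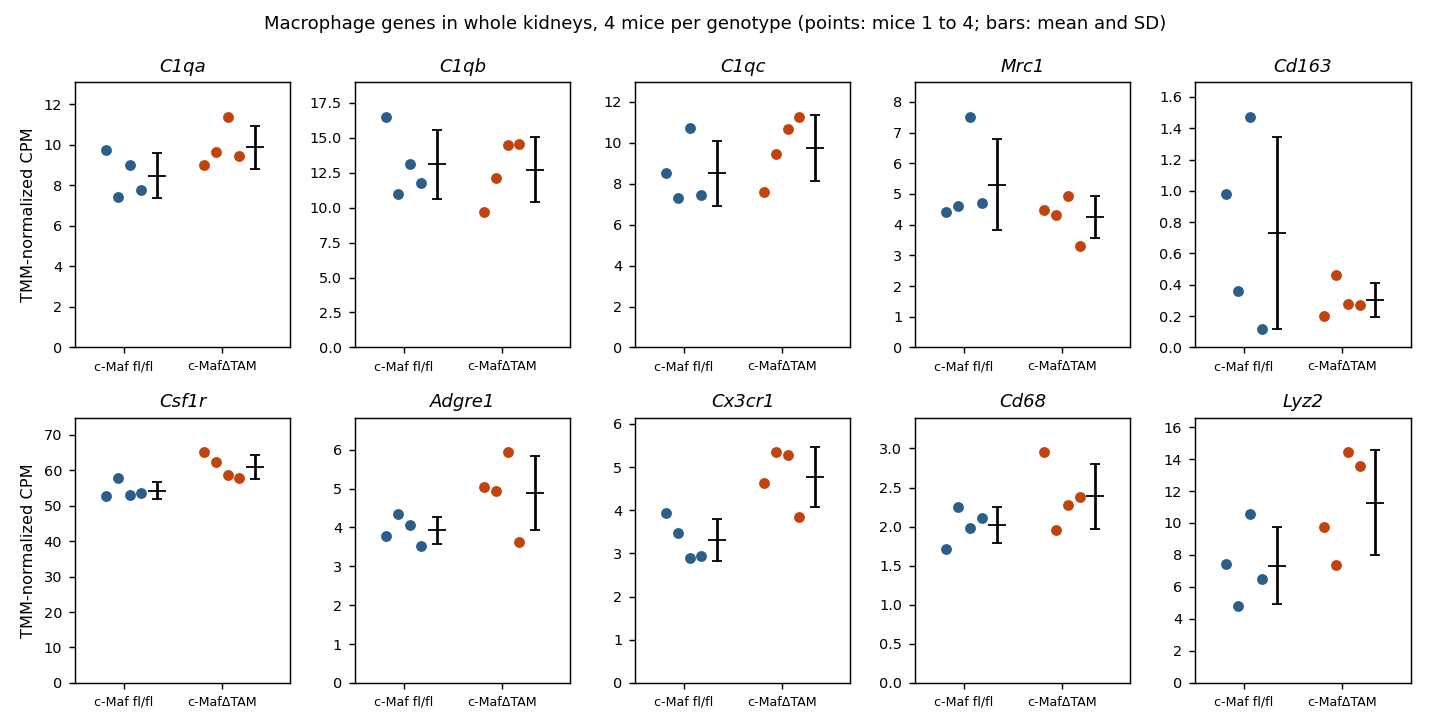
TMM-normalized CPM of the 10 macrophage genes in whole kidneys, with each gene's axis starting at 0. Blue points are control mice 1 to 4 (axis label c-Maf fl/fl), orange points knockout mice 1 to 4 (c-MafΔTAM) from left to right, and bars show the mean and SD (n = 4). In every panel the points of the genotypes overlap.

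Beginning with the C1q chains, *C1qa* encodes the A chain. Its levels were 9.01, 9.65, 11.4, and 9.42 CPM in knockout mice 1 to 4 and 9.76, 7.403, 8.98, and 7.74 CPM in control mice 1 to 4. Only knockout mouse 3 lay above every control mouse. The means were 9.86 ± 1.04 and 8.47 ± 1.10 CPM (SD, n = 4), a ratio of 1.16 (95% confidence interval 0.940 to 1.44, adjusted *P* = 0.540). *C1qb* encodes the B chain, which pairs with the A chain through a disulfide bond. Its levels were 9.67, 12.1, 14.5, and 14.6 CPM in knockout mice and 16.5, 10.97, 13.1, and 11.7 CPM in control mice. Both the lowest value (knockout mouse 1) and the highest (control mouse 1) came from a mouse numbered 1, and the other 6 values were intermingled. The ratio was 0.971 (95% confidence interval 0.754 to 1.25, adjusted *P* = 0.941). Without either of those mice the estimate turned positive, with log2 fold changes of 0.07 and 0.09. *C1qc* encodes the C chain. Its levels were 7.58, 9.45, 10.7, and 11.3 CPM in knockout mice and 8.54, 7.31, 10.7, and 7.45 CPM in control mice. Control mouse 3 was level with the upper knockout mice, while knockout mouse 1 was among the low ones. The ratio was 1.14 (95% confidence interval 0.884 to 1.48, adjusted *P* = 0.675).

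Over the 3 chains, the 95% intervals of the ratio reached from 0.754 to 1.48. Exact permutation tests with all 70 assignments gave *P* = 0.171 for *C1qa*, 0.83 for *C1qb*, and 0.286 for *C1qc* (2-sided; smallest possible *P* 0.0286). Ratios of counts within a mouse do not depend on the scaling between libraries. The counts of *C1qa* relative to *C1qb* were 0.790 ± 0.116 in knockout and 0.653 ± 0.0414 in control mice, and those of *C1qc* relative to *C1qb* were 0.768 ± 0.0222 and 0.659 ± 0.122 (SD, n = 4). The counts of *C1qa* relative to *C1qc* lay between 0.837 and 1.19 in the 8 mice. The counts of all 3 chains relative to *Csf1r* were 0.534 ± 0.103 in knockout and 0.557 ± 0.101 in control mice. Each of these ratios overlapped between genotypes.

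**Figure D2:**
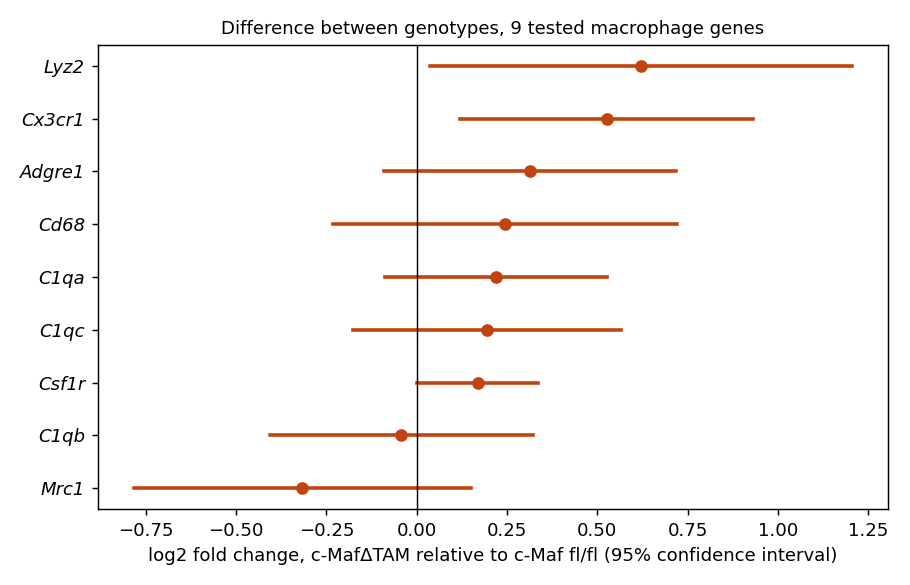
Log2 fold changes of the 9 tested macrophage genes (orange), knockout over control mice (n = 4 each), with points for the estimate and lines for the 95% confidence interval of edgeR's quasi-likelihood test. The intervals of *Lyz2*, *Cx3cr1*, and *Csf1r* lie above 0 before adjustment over all genes, and the other intervals include 0.

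*Csf1r* encodes the receptor for CSF1 and IL-34, on which tissue macrophages depend for survival. Its levels were 65.1, 62.5, 58.8, and 57.7 CPM in knockout mice and 52.7, 58.0, 52.9, and 53.5 CPM in control mice. Of the knockout mice, 3 lay above all control mice, and the only overlap was between control mouse 2 and knockout mouse 4. The means were 61.0 ± 3.39 and 54.3 ± 2.49 CPM (SD, n = 4), a ratio of 1.12 (95% confidence interval 1.00 to 1.26), with an unadjusted *P* of 0.0477, an adjusted *P* of 0.351, and an exact permutation *P* of 0.0571. The genes for the ligands, named here after their values were seen, did not pass either. *Csf1* was at 17.2 ± 2.61 CPM in knockout and 15.0 ± 2.98 CPM in control mice (adjusted *P* = 0.628). *Il34*, which tubular cells express, was at 5.65 ± 1.19 and 7.46 ± 2.03 CPM (adjusted *P* = 0.481).

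*Cx3cr1* encodes the receptor for fractalkine and is a marker of kidney mononuclear phagocytes. Its levels were 4.63, 5.34, 5.27, and 3.84 CPM in knockout mice and 3.92, 3.48, 2.89, and 2.93 CPM in control mice. Again 3 knockout mice lay above all control mice, and the fourth lay just below control mouse 1. The means were 4.77 ± 0.695 and 3.31 ± 0.491 CPM (SD, n = 4), a ratio of 1.44 (95% confidence interval 1.09 to 1.91). This gene had the smallest *P* of the 9, with an unadjusted *P* of 0.0153, an adjusted *P* of 0.214, and an exact permutation *P* of 0.0571. Its counts relative to *Csf1r* were 0.0782 ± 0.0111 in knockout and 0.0610 ± 0.00934 in control mice and overlapped. The fractalkine gene *Cx3cl1*, also named after its values were seen, was at 99.7 ± 3.80 and 94.9 ± 3.93 CPM (adjusted *P* = 0.737).

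*Mrc1* encodes the mannose receptor CD206, an endocytic receptor of resident macrophages that some endothelial cells also carry. Its levels were 4.48, 4.31, 4.94, and 3.30 CPM in knockout mice and 4.42, 4.604, 7.51, and 4.69 CPM in control mice. Control mouse 3 stood above the other 7 mice, which were within 3.30 to 4.94 CPM. The ratio of the genotypes was 0.803 (95% confidence interval 0.581 to 1.11, adjusted *P* = 0.561), and its log2 value of -0.32 became -0.10 without that mouse. Of the 7 endothelial markers, 0 rose and 1 fell, beside 1.58% of all genes that fell. It was *Kdr* (log2 fold change -0.37, adjusted *P* = 0.0450), which passed in 0 of 8 fits with 1 mouse left out. The endothelial markers summed to 425.6 to 508.9 CPM in knockout and 491.2 to 555.7 CPM in control mice, and their part in the *Mrc1* values was not tested.

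*Cd163* encodes the receptor that takes up hemoglobin-haptoglobin complexes. It had 4, 9, 5, and 5 counts in knockout mice and 20, 8, 29, and 2 counts in control mice, a total of 82. It reached the 0.516 CPM of the filter in 2 mice, where 4 were needed, and was not tested. The control mice held both the lowest and the highest values, so the genotypes overlapped. The means were 0.303 ± 0.111 and 0.733 ± 0.612 CPM (SD, n = 4). With all genes of at least 1 count tested, its log2 fold change was -1.26, with an unadjusted *P* of 0.0373 and an adjusted *P* of 0.474. A difference in *Cd163* was not resolved from the spread between control mice.

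*Adgre1* encodes F4/80, the surface protein most used to identify mouse macrophages. Its levels were 5.04, 4.93, 5.93, and 3.63 CPM in knockout mice and 3.78, 4.33, 4.06, and 3.52 CPM in control mice. Mouse 4 had the lowest level in each genotype, and the other 3 knockout mice lay above all control mice. The ratio was 1.24 (95% confidence interval 0.939 to 1.64, adjusted *P* = 0.493). *Cd68* encodes a lysosomal membrane glycoprotein of phagocytes. Its levels were 2.95, 1.95, 2.27, and 2.38 CPM in knockout mice and 1.72, 2.26, 1.98, and 2.11 CPM in control mice. Knockout mice 1, 3, and 4 lay above all control mice, the last 2 of them narrowly, and knockout mouse 2 lay among the controls. The ratio was 1.19 (95% confidence interval 0.852 to 1.65, adjusted *P* = 0.681).

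*Lyz2* encodes lysozyme M, an antibacterial enzyme of macrophages, monocytes, and neutrophils. Its levels were 9.77, 7.395, 14.4, and 13.5 CPM in knockout mice and 7.46, 4.79, 10.6, and 6.51 CPM in control mice. It varied most between mice of a genotype among the 9 tested genes, with a coefficient of variation of 29.1% in knockout and 33.0% in control mice. The ratio was 1.54 (95% confidence interval 1.03 to 2.31), with an unadjusted *P* of 0.0390, an adjusted *P* of 0.324, and an exact permutation *P* of 0.143. The 12 monocyte and neutrophil genes summed to 13.7 to 24.5 CPM in knockout and 10.8 to 13.2 CPM in control mice, which did not overlap, and no test was made of this sum. Of the 12, 4 had enough counts to be tested, and 0 of them passed, also at an unadjusted *P* of 0.05 (median log2 fold change 0.38). *Lcn2*, a gene of this list that tubule cells can also express, was at 2.00 to 12.8 CPM in knockout and 1.64 to 4.42 CPM in control mice, and its 12.8 CPM in knockout mouse 4 was part of the 24.5 CPM summed there. *Plac8* was at 4.98 ± 1.69 and 3.92 ± 0.933 CPM, and *Ccr2*, the receptor of recruited monocytes, at 4.58 ± 1.64 and 3.44 ± 1.21 CPM. The neutrophil marker *Ly6g* had at most 5 counts in any mouse and was at 0 in 5 of the 8. The part of these cells in the *Lyz2* values was not tested.

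Summed over all 10 genes, levels were 121.2 ± 4.86 CPM in knockout and 106.9 ± 6.25 CPM in control mice (SD, n = 4). The sums did not overlap, with 118.1 to 128.4 against 100.3 to 114.2 CPM, and no test was made of this sum. *Csf1r* had the most counts of the 10 in each mouse, and without it the sums were 60.2 ± 7.32 and 52.7 ± 7.73 CPM and overlapped. The sum of the C1q chains was 32.3 ± 4.62 CPM in knockout and 30.1 ± 4.43 CPM in control mice and also overlapped.

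The C1q chains varied between mice of both genotypes. Their mean z score over the 3 chains was low in knockout mouse 1 and in control mice 2 and 4, at -0.87, -1.18, and -0.91, and high in knockout mice 3 and 4, at 1.11 and 0.77. In knockout mouse 1 the low score came from *C1qb* and *C1qc*, and *C1qa* lay near its mean. Over the 8 mice, *Lyz2* followed this C1q profile most closely of the other tested macrophage genes (Pearson *r* = 0.753, rank 249 of 17481 genes). *Cx3cr1* (0.351, rank 3834) and *Adgre1* (0.168, rank 6376) were far down this ranking. *Mrc1* (-0.0198), *Csf1r* (-0.195), and *Cd68* (-0.356) did not follow the profile. The 8 genes most like it among 17481 compared were *Gm7854* (*r* = 0.974), *Itga5* (0.930), *Ctss* (0.930), *Gm47121* (0.923), *Map1b* (0.920), *H2-Eb1* (0.919), *Ahr* (0.915), and *Rps6ka2* (0.915). *Ctss* encodes cathepsin S, a protease of antigen-presenting cells, and *H2-Eb1* a chain of MHC class II. All 8 were picked by this correlation, and the others of the 8 are not described here. These correlations are a description of 8 mice, which share scaling factors and depth, and *C1qa*, *C1qb*, and *C1qc* themselves define the profile.

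**Figure D3:**
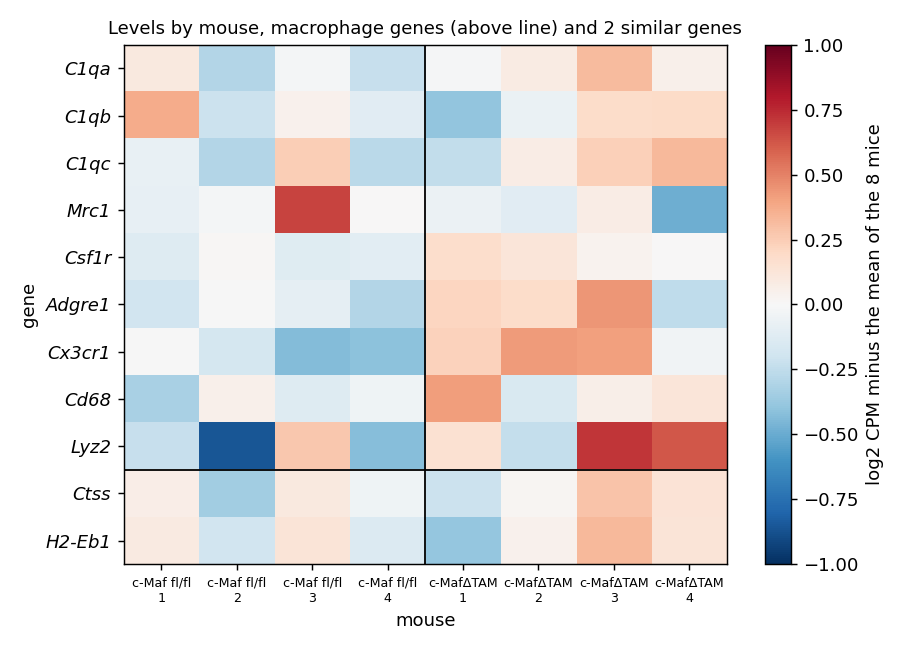
Log2 CPM of each gene minus its mean over the 8 mice, by mouse (columns, control on the left and knockout on the right), for the 9 tested macrophage genes above the horizontal line and for *Ctss* and *H2-Eb1* below it. Red is higher and blue lower than the mean. *C1qb*, *C1qc*, *Ctss*, and *H2-Eb1* are blue together in knockout mouse 1 and control mouse 2 and red in knockout mouse 3, and *Lyz2* has the widest range. *Ctss* and *H2-Eb1* were picked for their correlation with the C1q chains in these same mice, so their shared colors follow from that choice.

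Transcription factors and ligands of the macrophage lineage were read from a list of 9 genes (median log2 fold change 0.17). Of the 9, 0 rose and 1, *Maf*, fell, beside 1.58% of all genes that fell. With *Maf*, the list summed to 185 to 247.1 CPM in knockout and 503.8 to 579.3 CPM in control mice. Without *Maf*, the sums were 176 to 217.6 and 177.3 to 199.4 CPM and overlapped. At an unadjusted *P* of 0.05, 2 of the 9 were higher and 2, *Maf* among them, were lower, beside 6.58% of all genes that were higher and 14% in either direction. The higher ones were *Runx1*, a factor of blood cell development (log2 fold change 0.61, unadjusted *P* = 0.00719, adjusted *P* = 0.146), and *Spi1*. *Spi1*, which encodes PU.1, was at 2.77 ± 0.574 and 1.90 ± 0.389 CPM (log2 fold change 0.54, adjusted *P* = 0.337), and *Irf8*, another myeloid factor, at 10.98 ± 2.69 and 15.2 ± 0.592 CPM (log2 fold change -0.47, adjusted *P* = 0.200). For *Irf8* all 4 knockout mice lay below the controls. *Runx1*, *Spi1*, and *Irf8* were named after their values were seen.

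Of 30 other genes of resident macrophages, 22 could be tested, and 0 rose and 3 fell, beside 2.16% of all genes that passed in either direction, with a median log2 fold change of 0.11. The 30 genes summed to 1099 to 1489 CPM in knockout and 1790 to 2015 CPM in control mice, which did not overlap. Without the 3 genes that fell, the sums were 648.6 to 955.7 and 791.5 to 962 CPM and overlapped. *Lgmn*, which encodes the lysosomal protease legumain and is also highly expressed in proximal tubule cells, was at 148.3 ± 17.4 CPM in knockout and 489.0 ± 16.3 CPM in control mice (log2 fold change -1.72, standard error 0.0998, adjusted *P* = 4.88e-06). *Sirpa*, the receptor for CD47, was at 46.1 ± 5.99 and 85.1 ± 5.37 CPM (log2 fold change -0.89, adjusted *P* = 0.000554). *Gas6*, the ligand of the phagocytic receptors Mertk and Axl, was at 311.4 ± 45.4 and 450.0 ± 42.3 CPM (log2 fold change -0.53, adjusted *P* = 0.0424). None of these 3 genes is restricted to macrophages. With 1 mouse left out in turn, *Lgmn* and *Sirpa* passed in 8 of 8 fits and *Gas6* in 1. Of the 7 proximal tubule markers, 0 rose and 2 fell, beside 1.58% of all genes that fell. The 2 were the phosphate carrier *Slc34a1* and the lactate carrier *Slc5a12* (log2 fold changes -1.23 and -1.71, adjusted *P* = 0.000217 and 0.000349). The other 5 did not pass, with log2 fold changes from -0.32 (*Acsm2*) to 0.22 (*Kap*), and the summed level of the 7 overlapped between genotypes. *Kap* alone was at 8219 to 13730 CPM in the mice with low *Xist* and 1801 to 4195 CPM in the others. The overlap of the sum therefore does not compare tubule content between genotypes. The part of tubule cells in the *Lgmn*, *Sirpa*, and *Gas6* values was not tested. *Marco* was at 0 counts in every mouse.

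Of 11 genes shared by leukocytes, 10 could be tested, and 0 passed in edgeR's quasi-likelihood test (median log2 fold change 0.20). *Cyba*, a subunit of the phagocyte NADPH oxidase that tubule cells also express, was at 104.0 ± 10.6 CPM in knockout and 156.9 ± 33.0 CPM in control mice (log2 fold change -0.59, adjusted *P* = 0.0556). All 4 knockout mice lay below the controls for *Cyba*, and it passed in 8 of 18 other settings, with adjusted *P* = 0.00736 in DESeq2 and 0.0255 in edgeR's exact test. *Lcp1*, which encodes the actin-bundling protein plastin 2, was at 21.0 ± 2.07 and 18.7 ± 1.17 CPM (adjusted *P* = 0.532). Among 10 tested of 12 dendritic cell and MHC class II genes, 0 passed. The class II invariant chain *Cd74* was at 149.3 ± 26.2 and 133.9 ± 12.8 CPM (adjusted *P* = 0.637), and *H2-Eb1* at 51.9 ± 10.2 and 49.3 ± 5.52 CPM (adjusted *P* = 0.869). Of 5 tested of 11 lymphocyte genes, 0 passed, and the T cell genes *Trac* and *Cd8a* were at 1.42 ± 0.246 and 1.32 ± 0.377 CPM in knockout against 1.13 ± 0.379 and 1.00 ± 0.302 CPM in control mice. At an unadjusted *P* of 0.05, 1 leukocyte gene and 0 dendritic cell or lymphocyte genes passed, beside 14% of all genes.

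C1q acts at the head of the complement cascade, and 21 of 26 other complement genes could be tested. Of these, 3 rose and 0 fell, beside 0.586% of all genes that rose, with a median log2 fold change of 0.19. At an unadjusted *P* of 0.05, 6 were higher and 2 were lower, beside 14% of all genes in either direction. The lower ones, named after their values were seen, were *Cfb* and *C2*, which encode the proteases of the alternative and the classical C3 convertase. *Cfb* was at 13.4 ± 2.31 CPM in knockout and 18.7 ± 1.42 CPM in control mice, without overlap (log2 fold change -0.48, adjusted *P* = 0.0971), and *C2* at 10.2 ± 3.15 and 15.7 ± 2.66 CPM (log2 fold change -0.62, adjusted *P* = 0.255). *Mbl1* encodes a mannose-binding lectin, the counterpart of C1q in the lectin pathway. Its levels were 3.31, 5.55, 6.16, and 2.92 CPM in knockout mice and 0.932, 0.677, 1.57, and 0.469 CPM in control mice, so the genotypes did not overlap (log2 fold change 2.28, standard error 0.370, adjusted *P* = 0.00736). *Cfi*, the protease that inactivates C3b and C4b, was at 23.7 ± 5.35 and 6.63 ± 2.98 CPM (log2 fold change 1.83, adjusted *P* = 0.0294). *Serping1*, the C1 inhibitor that blocks the proteases bound to C1q, was at 73.7 ± 3.06 and 55.9 ± 3.46 CPM (log2 fold change 0.40, adjusted *P* = 0.0194). In 8 fits that each left out 1 mouse, *Mbl1* passed in 8, *Serping1* in 5, and *Cfi* in 3. The genes for those proteases were named after their values were seen: *C1ra* was at 7.81 ± 1.33 and 7.63 ± 1.44 CPM (adjusted *P* = 0.965), and *C1s1* at 11.7 ± 1.35 and 9.47 ± 1.27 CPM (adjusted *P* = 0.360).

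The absence of a called macrophage gene held in all 18 other settings of the fit. In the 5 mice with high *Xist*, 0 of 9 passed (3.75% of 21027 genes), and with *Xist* as a covariate, 0 of 9 passed (7.15% of all genes), with a smallest adjusted *P* of 0.143, for *Cx3cr1*. Among high-*Xist* mice the log2 fold change of *Cx3cr1* was 0.38 (unadjusted *P* = 0.130), that of *Lyz2* 0.94 (0.0190), that of *Csf1r* 0.11 (0.242), and that of *Cd68* 0.14 (0.647). In the same mice *C1qc* was at 0.40 (unadjusted *P* = 0.0336, adjusted *P* = 0.274), against 0.19 in all 8 mice, and *Mrc1* at -0.11, against -0.32. With 1 mouse left out in turn, *Lyz2* ranged from 0.46 to 0.85, *Cx3cr1* from 0.47 to 0.62, *Csf1r* from 0.14 to 0.20, *Adgre1* from 0.21 to 0.43, *Cd68* from 0.13 to 0.33, *C1qa* from 0.14 to 0.29, *C1qc* from 0.12 to 0.33, and *C1qb* from -0.12 to 0.09. *Mrc1* was negative in each of these fits, from -0.40 to -0.10. Low *Xist* was found in a single knockout mouse, and the mice with low *Xist* were not tested by themselves. In that mouse *C1qb* was at 9.67 CPM against 11.7 and 13.1 CPM in the control mice with low *Xist*, and *Csf1r* was at 65.1 CPM against 52.9 and 53.5 CPM.

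**Figure D4:**
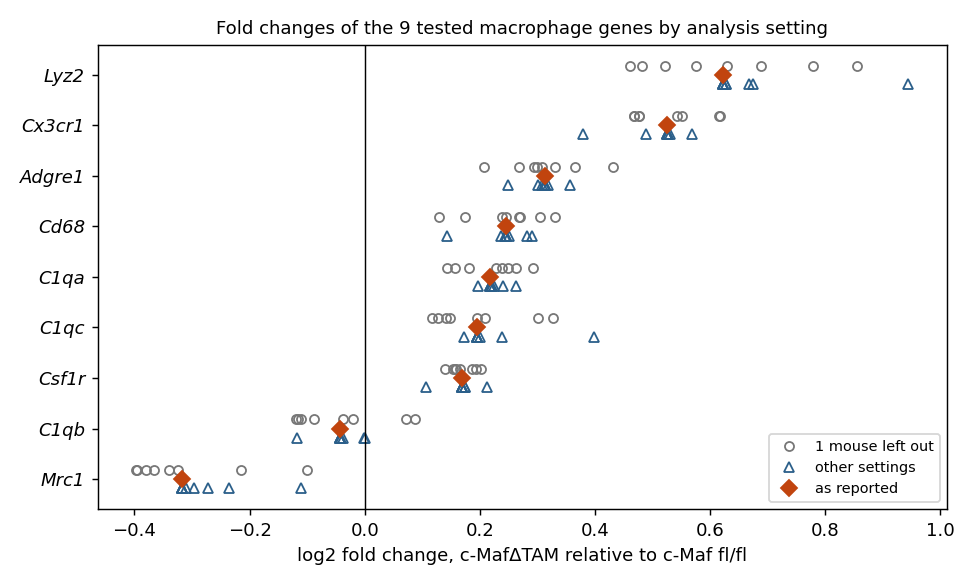
Log2 fold changes of the 9 tested macrophage genes, knockout over control mice, under the setting reported (orange diamonds), with 1 mouse left out (gray circles), and under the other settings (blue triangles). All genes but *C1qb* keep their direction, and the largest spread is that of *Lyz2*.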

How the data were processed

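RNA-Seq of whole kidneys was analyzed in 4 *c-Maf*ΔTAM and 4 *c-Maf* fl/fl mice. The deposited values are raw counts of reads per gene name, with exonic lengths, from the authors' run of featureCounts (2.0.1 per the header, while the submitters' processing notes name Subread 2.0.2 and edgeR 3.36.0) on the exons of Ensembl 102 (GRCm38). Per the file headers, reads were counted singly, without strand, and reads on more than 1 gene or with several alignments were not counted. The libraries were depleted of ribosomal RNA and sequenced as read pairs of 36 bases. The aligner of this file is not given in the sources used here, and the study's own route (CLC Genomics Workbench) was not repeated.

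Genes were kept by filterByExpr (20149 of 55367), library sizes scaled by TMM (factors 0.857 to 1.11), and genotypes compared without covariates by edgeR's robust quasi-likelihood test (edgeR 4.0.16, limma 3.58.1, R 4.3.3), with Benjamini-Hochberg adjustment over all tested genes at 0.05. Totals were 16649129 to 22990257 counts per mouse, and the common biological coefficient of variation was 0.203. Log2 values used a prior count of 2. Confidence intervals are those of the quasi-likelihood test. Exact permutation tests used log2 CPM. All pairs of libraries within a genotype differed beyond sampling noise. Alternatives were RLE and upper-quartile factors, DESeq2 1.42.0, edgeR's exact test, other filters, the replicate number as a block, *Xist* as covariate, the 5 mice with over 1000 *Xist* counts, leaving out mitochondrial and ribosomal RNA genes, a threshold of 0.01, and each mouse left out. The scripts were tested on simulated data. Figures used matplotlib 3.10.9 (Python 3.11.15).

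The macrophage genes and the other lists were chosen with earlier results of these data known. Most genes were named by rule: the 10 macrophage genes and *Maf*, in each other list the genes past the threshold (at most the 4 with the smallest *P*) or else the 2 with the highest CPM, and the 8 genes with a mean CPM of at least 1 most like the C1q chains. Outside this rule are the genes marked as named after their values were seen, and *Lcn2*, *Ly6g*, *Alb*, *Hamp*, *Cyp2e1*, *Acsm2*, *Kap*, and *Marco*. Of the complement list, *C5* was not matched by name. Promoters are RefSeq's, and no entry was used for *C1qa*, *Adgre1*, or *Csf1r*.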

Additional observations from a re-analysis of the deposited data

Results flagged for a closer look

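Of 66 groups of 4 mice examined, 6 had 1 mouse apart from the other 3 by Dixon's criterion, against 3.3 by chance at 1 in 20. Among the macrophage genes, *Mrc1* was at 7.51 CPM in control mouse 3 against 4.42 to 4.69 CPM in the other control mice (148 counts). *Csf1r* was at 58.0 CPM in control mouse 2 against 52.7 to 53.5 CPM, and it lay just above knockout mouse 4, at 57.7 CPM, the only pair that overlapped for that gene. *Gas6* was at 243.5 CPM in knockout mouse 1 against 330.6 to 337.3 CPM, and *Cfi* was at 15.7 CPM in the same mouse against 25.8 to 26.8 CPM. *Ttr*, a thyroxine and retinol carrier of the hepatocyte list, was at 67.8 CPM in control mouse 3 against 31.5 to 33.5 CPM, and *Kdr* was at 120.5 CPM in that mouse against 105.2 to 107.3 CPM.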

How the results depend on the processing

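The count of 0 called macrophage genes was the same in all 18 other settings, and 7 of 9 estimates were positive in each of them, except 8 of 9 without knockout mouse 1 or control mouse 1 and 7 of 10 with all genes of at least 1 count tested. The count over all genes, 436, became 887 with DESeq2, 676 with edgeR's exact test, 1441 with *Xist* as a covariate, 789 in the mice with high *Xist*, and 180 at an adjusted *P* of 0.01. It ranged from 239 (without knockout mouse 3) to 452 (without knockout mouse 1) with 1 mouse left out, with 256 without knockout mouse 2 and 285 without control mouse 3. Under upper-quartile factors 152 genes were higher and 266 lower, and the median of all genes was 0.05, so all estimates shifted upward together. The causes were not tested.

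The replicate number as a block gave 129 genes. The residuals of mice with the same number correlated at -0.373, 0.152, -0.11, and -0.331, and not every mouse correlated best with its own number. Knockout mouse 1, low in *Xist*, correlated at 0.329 and 0.384 with control mice 3 and 4, also low in *Xist*. It correlated at -0.373 and -0.387 with control mice 1 and 2, which were high in *Xist*. With that split in the residuals, they cannot decide whether the numbers pair the mice. With 1 mouse left out, *C1qb* ranged from -0.12 to 0.088 and *H2-Eb1* from -0.033 to 0.20, so the sign of both depends on single mice. *Maf* was past the threshold in 16 of 18 other settings (adjusted *P* = 0.0516 with the block and 0.108 in mice with high *Xist*), *Lgmn* and *Sirpa* in 18, *Mbl1* in 17 of 17, *Serping1* in 14, *Cfi* in 11, *Gas6* in 9, *Kdr* in 6, and *Cyba*, not called in the report, in 8. *Ttr* was past it in 14 of 17.

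*Cd163* had 82 counts over all mice, and *Cd68* had at most 58 in any mouse. Whether depth limits the calls of the macrophage genes was not tested. The sums of 2 lists without the genes that fell and the RPKM over unshared bases were added after the data were seen.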
